A study of Mus musculus with 6 samples.

Results

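The genes described here encode the matrix metalloproteinases (MMPs), the membrane-anchored and secreted ADAM and ADAMTS proteases, and the tissue inhibitors of metalloproteinases (TIMPs). They were taken from the deposited gene table as the protein-coding rows whose symbol begins with Mmp, Adam, Adamts or Timp followed by a digit. This gave 78 of the 54532 genes in the table, made up of 4 TIMP, 22 MMP, 33 ADAM and 19 ADAMTS genes. RNA was sequenced from 6 mouse libraries labelled MIN6, a pancreatic beta cell line derived from an insulinoma. Of these, 3 were labelled PP2Ac knockdown and carried sh2 in their titles, and 3 were labelled control and carried shc. PP2Ac is the subunit that carries the active site of PP2A, a serine/threonine phosphatase. The labels give no sequence for the hairpins, no drug or lipid for any library and no statement that replicates came from separate cultures, so the p-values below measure the spread between these samples, which may be technical.

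MMPs, ADAMs and ADAMTSs are zinc proteases of the metzincin superfamily. They are made as inactive precursors, and many are activated by proprotein convertases such as furin. MMPs cut collagens and other matrix proteins. ADAMs mostly sit in the membrane and release the outer parts of growth factors, cytokines and receptors, while ADAMTSs are secreted and cut proteoglycans and procollagens. TIMPs block the active site of these proteases, with a choice of targets that differs between the TIMPs.

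Values are FPKM, in which the reads of a gene are divided by its length and by a scaled measure of library depth. Depth was 14614737 to 16030939 recovered reads per library. Ppp2ca, the gene of the alpha isoform of PP2Ac, had 10.1, 11.4 and 10.9 FPKM in the knockdown libraries, against 42.5, 34.6 and 35.6 FPKM in the control libraries (log2 difference -1.70, SE 0.09, limma adjusted p = 5.35e-06). The labelled cell type was not borne out by its defining markers: 5 of 9 beta cell markers (Ins1, Ins2, Nkx6-1, Slc2a2 and Ucn3) had no read in any library. The 2 tested, Pdx1 and Mafa, were both higher, Pdx1 at 3.96 FPKM in knockdown and 1.68 FPKM in control and Mafa at 4.86 FPKM in knockdown and 1.78 FPKM in control. The summed level of the 9 was 8.16 to 9.78 FPKM in knockdown and 2.91 to 4.63 FPKM in control. Of 8 fibroblast and stromal markers, 5 were high enough to test and all 5 were higher in knockdown, with Lum at 0 throughout. Their sum was 278 to 316 FPKM in knockdown and 107 to 126 FPKM in control, most of it from collagen genes. Of 5 duct markers, 2 were tested and both were lower, with Epcam at 0. Krt7, below the filter, was higher in voom on recovered reads, at 0.251 FPKM in knockdown and 0.0178 FPKM in control (adjusted p = 6.96e-06). The duct marker sum was 352 to 392 FPKM in knockdown and 681 to 849 FPKM in control. Nearly all of it came from Spp1 alone, which averaged 371 FPKM in knockdown and 760 FPKM in control. Of 7 macrophage markers, 2 were higher and 1 lower, with Adgre1 and Itgam at 0, and the sum was 44.6 to 53.3 FPKM in knockdown and 34.5 to 38.3 FPKM in control. Cd14 made up most of the macrophage sum in knockdown. The 5 endothelial markers summed to at most 0.277 FPKM in any library, with Cdh5 at 0. The part of these shifts in the results below was not tested, and in bulk RNA fewer cells of a type and less RNA per cell cannot be told apart.

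PP2Ac knockdown libraries had more RNA of the membrane collagenase gene Mmp14, of the ADAMTS genes Adamts1 and Adamts14 and of the inhibitor gene Timp1, and less of Adam9, Adam8, Adamts6 and the collagenase gene Mmp13. Few members carried most of the signal. Of the 78 genes, 26 had no read in any library, 35 had reads but a mean FPKM below 1, and 17 reached a mean FPKM of 1, the level required for the test. Of the 17, 5 were higher in knockdown, 5 were lower and 7 did not pass an adjusted p of 0.05 in limma on log2(FPKM + 1). The share of tested members called was 58.8%, against 62.4% of all 11652 genes tested, so the share of calls was close to that background. By direction, 33.3% of all tested genes were higher and 29.1% lower. The median log2 difference of the 17 was -3.45e-05, against 0.03 for all tested genes. A log2 difference of at least 1 in either direction was seen for 4 of the 17, or 23.5% (Adamts1, Mmp14, Mmp13 and Adam9), against 9.86% of all tested genes. Mmp13, Adamts6 and Adamts14 averaged below 1 FPKM in 1 group and reached the filter only through the group where they were high. The shares of members called or with large differences thus say nothing of the family as a whole. Libraries of the 2 groups did not overlap for 11 of the 17 members, against 68.1% of all tested genes.

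**Figure D1:**
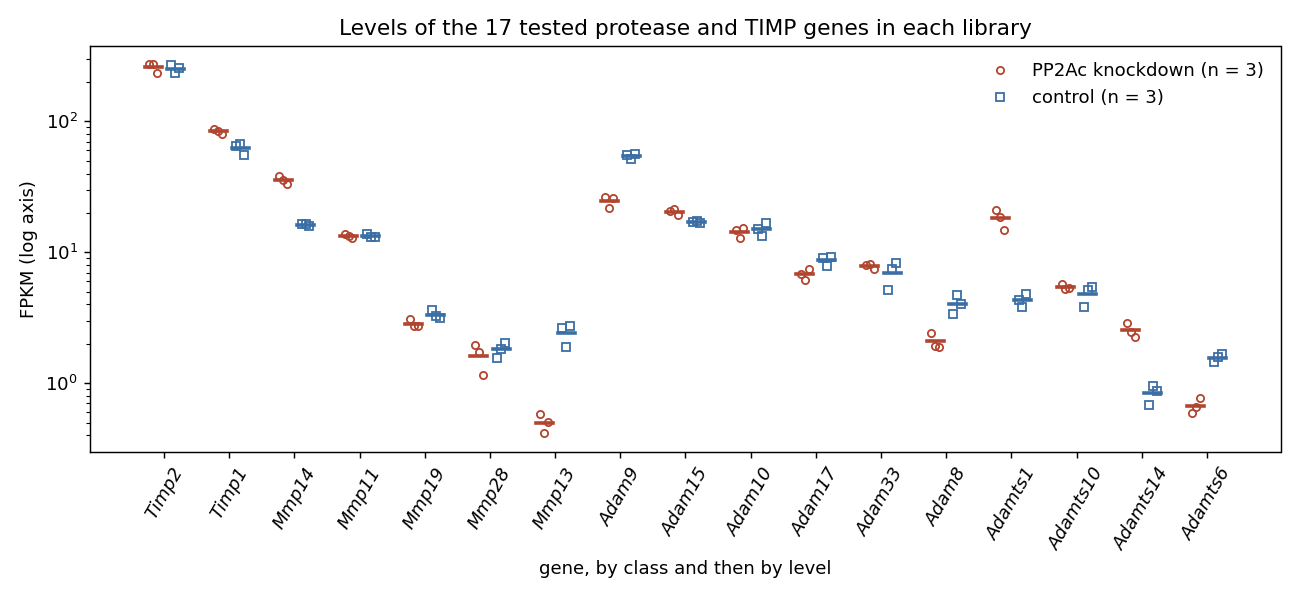
FPKM of each of the 17 tested members (log axis) in the 3 PP2Ac knockdown libraries (circles) and the 3 control libraries (squares), with bars at the group means. Mmp14, Adamts1 and Adamts14 lie above control in every knockdown library, while Adam9, Adam8, Adamts6 and Mmp13 lie below it.

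The promoters of 4 members are shown first: the MMP genes with the largest differences among those tested, Mmp13 and Mmp14, the ADAMTS gene with the largest, and Mmp3, a neighbour of Mmp13 with the same motif. RefSeq gives each as 250 bases before to 50 bases after the annotated transcript start (build GRCm38.p6), in the direction of the gene. Capitals mark the letters TGANTCA, the binding motif of the AP-1 transcription factors, searched on both strands; the motif reads the same on either strand apart from its middle letter. Mmp13 (chr9:7272264-7272563, plus strand) is a collagenase gene that was lower in knockdown, and Mmp3 (chr9:7445572-7445871, plus strand) a stromelysin gene that lies in the same gene cluster and was higher. Mmp14 (chr14:54431348-54431647, plus strand) and Adamts1 (chr16:85803064-85803363, minus strand) were both higher.
Mmp13: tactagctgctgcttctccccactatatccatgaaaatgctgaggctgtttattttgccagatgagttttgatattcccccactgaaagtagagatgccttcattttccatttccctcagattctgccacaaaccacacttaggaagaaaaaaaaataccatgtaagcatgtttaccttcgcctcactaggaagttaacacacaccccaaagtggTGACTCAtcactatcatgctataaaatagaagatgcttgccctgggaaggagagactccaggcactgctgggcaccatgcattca
Mmp3: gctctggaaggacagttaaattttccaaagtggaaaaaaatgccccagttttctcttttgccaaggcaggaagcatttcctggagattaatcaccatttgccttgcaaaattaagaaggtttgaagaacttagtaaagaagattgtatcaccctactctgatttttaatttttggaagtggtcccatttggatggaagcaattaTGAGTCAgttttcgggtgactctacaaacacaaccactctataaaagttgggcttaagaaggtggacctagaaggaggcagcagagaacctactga
Mmp14: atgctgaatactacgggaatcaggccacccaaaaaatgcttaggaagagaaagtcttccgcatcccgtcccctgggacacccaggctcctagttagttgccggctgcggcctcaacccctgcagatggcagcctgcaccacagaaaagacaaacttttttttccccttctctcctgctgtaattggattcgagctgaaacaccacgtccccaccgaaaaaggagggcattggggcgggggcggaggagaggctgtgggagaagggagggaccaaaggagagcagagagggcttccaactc
Adamts1: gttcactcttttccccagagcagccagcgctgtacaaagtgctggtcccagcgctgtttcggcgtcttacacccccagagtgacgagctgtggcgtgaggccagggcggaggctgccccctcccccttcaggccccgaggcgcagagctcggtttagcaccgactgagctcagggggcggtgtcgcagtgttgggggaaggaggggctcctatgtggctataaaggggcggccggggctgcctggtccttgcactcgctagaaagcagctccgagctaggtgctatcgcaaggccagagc
The AP-1 letters begin at position -35 in Mmp13 and at -46 in Mmp3, counted from the transcript start, and are not in the windows of Mmp14 and Adamts1. Promoters were given for 48 of the 78 genes, and 12 of their 53 windows, in 12 genes, had the AP-1 letters (22.6%), while 7.81% of all 32851 promoter windows did. Of the 12 windows of tested members, 1 had them. The members that had them were unevenly placed. In the MMP cluster of chromosome 9 (7272514 to 7699585, GRCm38), which holds 9 MMP genes, 7 of 9 had the letters, and of the other MMP genes with a promoter 0 of 8 did. Among ADAM genes 5 of 17 did, and among ADAMTS and TIMP genes 0 of 10 and 0 of 4. The short ETS core GGAA was in 95.98% of all windows and in 42 of the 48 genes, too common to tell windows apart. A match of letters is no evidence of binding, and a window without them says nothing of sites elsewhere.

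Timp2 and Timp1 had the highest levels of all members. Timp2 (ENSMUSG00000017466, chromosome 11, 118301069 to 118355740, minus strand), whose protein inhibits MMPs and also bridges MMP14 to the MMP2 precursor, had 272, 273 and 234 FPKM in knockdown, against 270, 234 and 256 FPKM in control. These libraries overlapped, and the log2 difference of 0.04 had a 95% interval of -0.17 to 0.25 (limma adjusted p = 0.749). Timp1 (ENSMUSG00000001131, chromosome X, 20870166 to 20874735, plus strand), a secreted inhibitor of most MMPs, had 87.0, 84.4 and 80.6 FPKM in knockdown, against 64.5, 67.2 and 55.7 FPKM in control. Every knockdown library lay above every control library, and Timp1 rose by 0.43 on the log2 scale (SE 0.08, limma adjusted p = 0.0026). The Timp1 gene lies wholly inside Syn1 on the opposite strand, which averaged at most 0.438 FPKM in a group, far below Timp1. Timp3, whose protein binds to matrix and also inhibits ADAM17 and ADAMTSs, had 7, 4 and 7 reads in knockdown, against 6, 11 and 11 reads in control, or at most 0.087 FPKM. Timp4 had no read in knockdown and 2 reads in control, both in 1 library. Timp2 made up 75.6% of the summed TIMP level in knockdown and 80.2% in control.

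Among the MMP genes, Mmp14 rose and Mmp13 fell while Mmp11 stayed within a narrow interval around no difference. Mmp14 (ENSMUSG00000000957, chromosome 14, 54431612 to 54445364, plus strand) encodes a membrane-bound collagenase that activates MMP2. It had 38.6, 35.9 and 33.2 FPKM in knockdown, against 16.3, 16.3 and 15.9 FPKM in control. The lowest knockdown library was above the highest control library, and the log2 difference was 1.10 (SE 0.07, limma adjusted p = 1.13e-05). Mmp13 (ENSMUSG00000050578, chromosome 9, 7272514 to 7283331, plus strand), a collagenase of the matrix, fell to 0.581, 0.415 and 0.501 FPKM in knockdown, against 2.62, 1.88 and 2.73 FPKM in control. It rested on 24, 17 and 20 reads in knockdown, against 112, 78 and 120 reads in control. The log2 difference was -1.18 (SE 0.14, limma adjusted p = 0.000168), and since a pseudocount shrinks low values it was -2.06 with a pseudocount of 0.1 and -2.26 with voom on recovered reads.

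Mmp11, which encodes stromelysin-3, had 13.8, 13.4 and 12.8 FPKM in knockdown, against 13.8, 13.2 and 13.0 FPKM in control. The replicates were close, with coefficients of variation of 3.55% in knockdown and 3.15% in control, and the 95% interval of the log2 difference was -0.15 to 0.15 (limma adjusted p = 1.00). Mmp19 averaged 2.85 ± 0.209 FPKM in knockdown and 3.33 ± 0.241 FPKM in control (SD, n = 3 each), a log2 difference of -0.17 with an interval of -0.37 to 0.04 (limma adjusted p = 0.138). Its groups did not overlap, but the difference did not pass the threshold. Mmp28, the gene of epilysin, averaged 1.62 ± 0.411 FPKM in knockdown and 1.81 ± 0.240 FPKM in control (SD, n = 3 each), with an interval of -0.45 to 0.22 around -0.11 (limma adjusted p = 0.514).

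**Figure D2:**
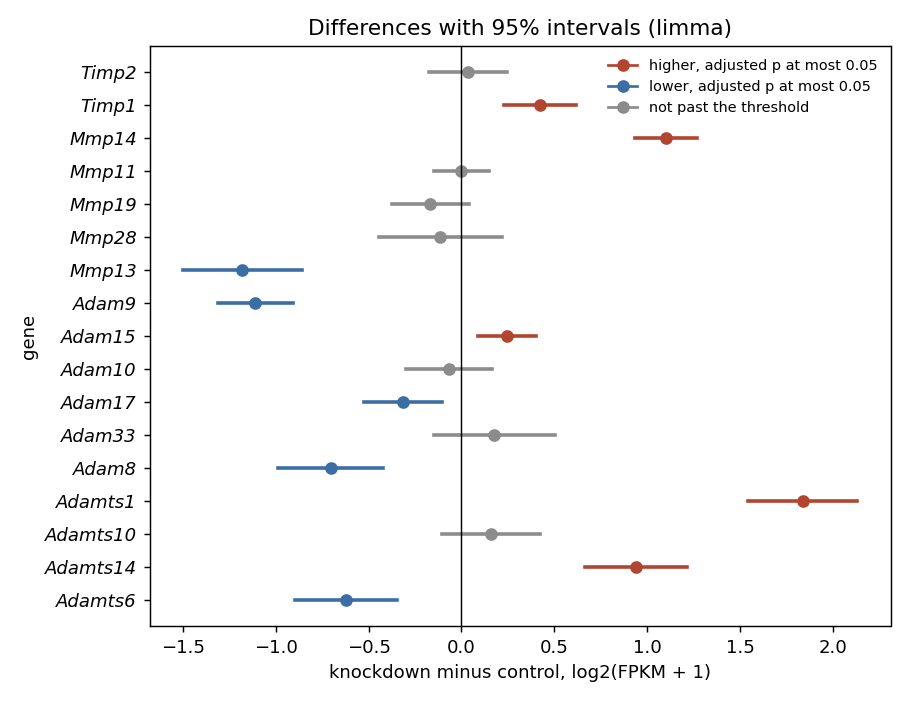
Knockdown minus control on the log2(FPKM + 1) scale for the 17 tested members, with 95% intervals from limma. Adamts1 is farthest to the right at 1.84 and Mmp13 farthest to the left at -1.18, and the interval of Mmp11 is centred on 0.

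Of 6 tested ADAM genes, 3 were lower and 1 was higher in knockdown, against 29.1% lower and 33.3% higher of all tested genes. These are too few to give a direction for the class. Adam9 (ENSMUSG00000031555, chromosome 8, 24949611 to 25016927, minus strand), a widely expressed membrane protease that sheds surface proteins, had 26.4, 21.9 and 26.0 FPKM in knockdown, against 55.8, 51.4 and 56.1 FPKM in control. The groups were well separated, with a log2 difference of -1.11 (SE 0.09, limma adjusted p = 2.57e-05). Adam8, known best from leukocytes, had 2.41, 1.93 and 1.91 FPKM in knockdown, against 3.36, 4.68 and 4.06 FPKM in control. It fell by 0.70 on the log2 scale (SE 0.12, limma adjusted p = 0.00135) with no overlap between the groups. Of the macrophage markers tested, Cd68 was lower, at 2.27 FPKM in knockdown and 16.5 FPKM in control, while Cd14, at 44.2 FPKM in knockdown and 18.2 FPKM in control, and Lyz2, at 3.62 FPKM in knockdown and 1.74 FPKM in control, were higher. Ptprc, the general leukocyte marker, was at most 0.00479 FPKM in either group mean.

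Adam10 and Adam17 encode the main sheddases of Notch and of tumour necrosis factor. Adam10 had 14.7, 12.8 and 15.4 FPKM in knockdown, against 15.0, 13.3 and 16.8 FPKM in control. Its groups overlapped, and the log2 difference of -0.07 had an interval of -0.30 to 0.17 (limma adjusted p = 0.585). Adam17 had 6.86, 6.18 and 7.42 FPKM in knockdown, against 9.10, 7.86 and 9.21 FPKM in control. It was lower by the test, with a log2 difference of -0.31 (SE 0.09, limma adjusted p = 0.0157), but the call was lost without knockdown library 2 (adjusted p = 0.0556), without control library 1 (adjusted p = 0.0514) and without control library 3 (adjusted p = 0.0514), over a range of 0.00389 to 0.0556 in all alternatives. Adam15, which encodes a membrane ADAM with an active protease domain, had 20.7, 21.5 and 19.1 FPKM in knockdown, against 17.1, 17.4 and 16.8 FPKM in control. This was the smallest difference that passed among the members, at 0.24 on the log2 scale (SE 0.07, limma adjusted p = 0.0135). Adam33 averaged 7.86 ± 0.395 FPKM in knockdown and 6.94 ± 1.61 FPKM in control (SD, n = 3 each) and did not pass (limma adjusted p = 0.303). Control library 1 was low for it, at 5.15 FPKM. Within the ADAM genes the balance shifted, since the level of Adam9 was 1.80, 1.71 and 1.69 times that of Adam10 in the knockdown libraries, against 3.72, 3.86 and 3.34 times in the control libraries.

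The ADAMTS genes went both ways. Adamts1 (ENSMUSG00000022893, chromosome 16, 85793827 to 85803113, minus strand), whose protease cuts the proteoglycans aggrecan and versican, had 21.0, 18.7 and 14.8 FPKM in knockdown, against 4.34, 3.83 and 4.84 FPKM in control. The knockdown libraries spread more widely than the control libraries but stayed far above them, and the log2 difference was 1.84 (SE 0.13, limma adjusted p = 1.38e-05). Adamts14 (ENSMUSG00000059901, chromosome 10, 61197112 to 61273438, minus strand), a procollagen N-proteinase gene, had 2.87, 2.45 and 2.25 FPKM in knockdown, against 0.686, 0.955 and 0.867 FPKM in control. It rose by 0.94 on the log2 scale (SE 0.12, limma adjusted p = 0.00026), and the difference was 1.58 with voom on recovered reads. Its close relatives Adamts2 and Adamts3, which encode procollagen N-proteinases as well, had no read in any library. Among their substrates, Col1a1 averaged 86.9 FPKM in knockdown and 9.95 FPKM in control, and Col3a1 31.7 FPKM in knockdown and 0.834 FPKM in control. Col1a2, also a type I collagen gene, rose much less, at 165 FPKM in knockdown and 98.8 FPKM in control (log2 difference 0.73).

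Adamts6 and Adamts10 encode related proteases of fibrillin microfibrils. Adamts6 (ENSMUSG00000046169, chromosome 13, 104287835 to 104496695, plus strand) had 0.589, 0.653 and 0.773 FPKM in knockdown, against 1.44, 1.58 and 1.68 FPKM in control. It fell by 0.62 on the log2 scale (SE 0.12, limma adjusted p = 0.00227), and the difference was -1.12 with a pseudocount of 0.1 and -1.25 with voom on recovered reads. Adamts10 averaged 5.44 ± 0.252 FPKM in knockdown and 4.81 ± 0.857 FPKM in control (SD, n = 3 each), and the difference of 0.16 did not pass (95% interval -0.10 to 0.42, limma adjusted p = 0.258). As for Adam33, control library 1 gave the lowest value of Adamts10, at 3.84 FPKM.

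**Figure D3:**
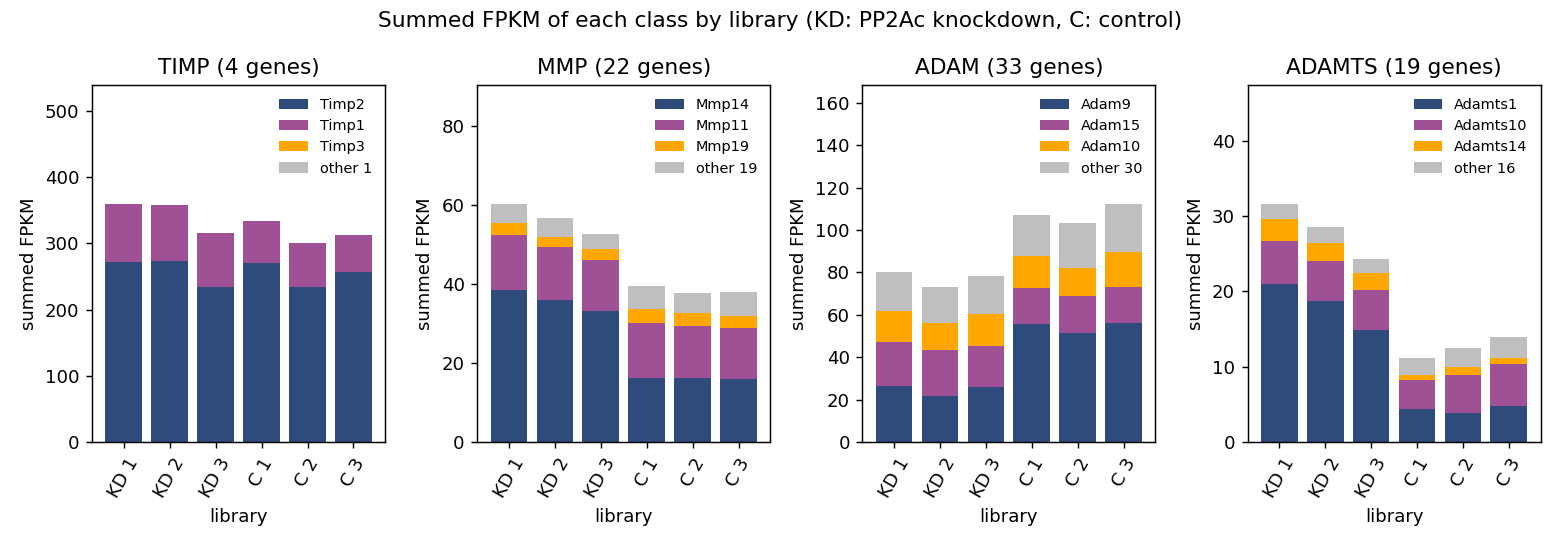
Summed FPKM of all TIMP, MMP, ADAM and ADAMTS genes in each library, with the 3 most abundant genes of each class in colour (KD: PP2Ac knockdown, C: control, 1 bar a library). The MMP sum of every knockdown library lies between 52.8 and 60.2 FPKM and that of every control library between 37.8 and 39.4 FPKM, with Mmp14 as the part that differs most.

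The sums by class are made of the same FPKM values as above. They are given as a description with no test and are no independent observation. The MMP sum was 60.2, 56.7 and 52.8 FPKM in knockdown, against 39.4, 37.8 and 38.0 FPKM in control, and Mmp14 made up 63.5% of it in knockdown and 42.1% in control. The ADAM sum was 80.1, 73.2 and 78.3 FPKM in knockdown, against 106.9, 103.4 and 112.3 FPKM in control, with Adam9 at 32.1% of it in knockdown and 50.6% in control. The ADAMTS sum was 31.6, 28.5 and 24.3 FPKM in knockdown, against 11.1, 12.5 and 13.9 FPKM in control, with Adamts1 at 64.6% in knockdown and 34.7% in control. In each of these classes a single gene thus carried much of the difference. The TIMP sum overlapped between groups, at 359, 357 and 315 FPKM in knockdown and 334, 301 and 312 FPKM in control. The level of TIMP RNA per MMP RNA was 5.97, 6.30 and 5.97 in knockdown, against 8.49, 7.97 and 8.20 in control. For the pair that forms the MMP2-activating complex, Timp2 RNA was 7.07, 7.60 and 7.05 times Mmp14 RNA in knockdown, against 16.5, 14.3 and 16.2 times in control.

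Several members below the filter were also far apart between the groups. They were tested with limma voom on the recovered reads, for genes with a mean of at least 10 reads, an analysis added after the values had been seen. Of 10 such members, 5 were higher and 4 lower, while 1 did not pass, against 62.8% of all 13493 genes called in that fit (31.7% higher, 31.1% lower). In limma on log2(FPKM + 1) with no filter, 11 of the members with a read were higher and 7 lower, against 14.8% and 15.3% of 26998 genes (30.1% in all). A low gene enters these fits most easily where 1 group is high, so these counts say nothing of the family as a whole. Mmp9, which encodes gelatinase B, had 48, 65 and 45 reads in knockdown, against 2, 2 and 1 reads in control. In FPKM this was 0.877, 1.20 and 0.851 in knockdown, against 0.0353, 0.0364 and 0.0172 in control. Corrected for depth, the reads of Mmp9 were 32.7 times as many in knockdown (exact 95% interval 13.7 to 102.0, counting error only; voom log2 difference 4.69, SE 0.49, adjusted p = 3.54e-07). Mmp2, the gene of the other gelatinase, had 4, 6 and 8 reads in knockdown, against 3, 3 and 0 reads in control. It was below the read minimum of voom and was not called by limma with no filter (adjusted p = 0.104).

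Mmp3 and Mmp10, neighbours of Mmp13 on chromosome 9, encode stromelysins. Mmp3 had 25, 20 and 16 reads in knockdown, against 8, 3 and 7 reads in control, or 3.50 times as many for the depth (exact 95% interval 2.04 to 6.30, counting error only; voom adjusted p = 0.00193). Mmp10 had 4, 5 and 9 reads in knockdown, against 5, 8 and 11 reads in control, below the read minimum of voom, and was not called by limma with no filter (adjusted p = 0.603). Mmp3 was thus higher while Mmp13, in the same cluster, was lower, and a part of the AP-1 letters in either was not tested. Of the other 6 genes of the cluster, Mmp12, Mmp1b, Mmp8 and Mmp7 had no read in any library, and Mmp20 and Mmp27 had 1 read each. Mmp23, which encodes a membrane-bound MMP, averaged 0.252 ± 0.0253 FPKM in knockdown and 0.653 ± 0.138 FPKM in control (SD, n = 3 each; voom adjusted p = 0.0055).

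Among low ADAM genes, Adam11 and Adam12 were higher in knockdown and Adam22 and Adam1a lower. Adam11, whose protein lacks protease activity, had 26, 21 and 26 reads in knockdown, against 2, 3 and 1 reads in control (voom adjusted p = 1.68e-05). Adam12, known from muscle and stromal cells, had 21, 18 and 22 reads in knockdown, against 1, 4 and 2 reads in control (voom adjusted p = 7.65e-05). Adam22, an inactive ADAM that acts as a neuronal receptor, had 23, 36 and 22 reads in knockdown, against 78, 54 and 87 reads in control (voom adjusted p = 0.000407). Adam1a had 7, 21 and 16 reads in knockdown, against 31, 47 and 21 reads in control, and passed in voom (adjusted p = 0.0271) although the groups overlapped, but not in limma with no filter (adjusted p = 0.169). Its locus overlaps Mapkapk5 on the same strand over 20445 bases, so its reads are uncertain.

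Among low ADAMTS genes, Adamts7, whose protease cuts the cartilage protein COMP, had 27, 16 and 26 reads in knockdown, against 4, 12 and 1 reads in control (voom adjusted p = 0.00156). Adamts20, which is needed for pigment cell spread in mice, had 13, 33 and 18 reads in knockdown, against 51, 32 and 50 reads in control and was lower in voom (adjusted p = 0.0119), with overlapping groups, but not called by limma with no filter (adjusted p = 0.108). Adamts4, an aggrecanase gene, averaged 0.772 ± 0.114 FPKM in knockdown and 0.519 ± 0.174 FPKM in control (SD, n = 3 each) and did not pass (voom adjusted p = 0.0669). The counting is not stated to use strand, so its value is uncertain. The other 25 members with reads had 1 to 55 reads over all 6 libraries and at most 0.438 FPKM in any of them. The groups of 5 of these 25 did not overlap (Adam30, Adam4, Adamts12, Adamts13 and Mmp2), against 16.2% of all 13117 genes with reads that had a mean FPKM below 1 and a mean of under 10 reads. The reads of Adam4 are uncertain, since its locus overlaps Cox16 on the same strand over 2504 bases, its whole length. Cox16 averaged 2.53 FPKM in knockdown and 3.42 FPKM in control. Adamts12 had 20, 13 and 8 reads in knockdown, against 0, 1 and 0 reads in control. For the 26 members with no read, 3 reads would have given 0.0133 to 0.188 FPKM depending on gene length, which covers counting error only. They include all 7 genes of the ADAM clusters on chromosome 8 from 40675077 to 40827037 and from 43519762 to 43710049.

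**Figure D4:**
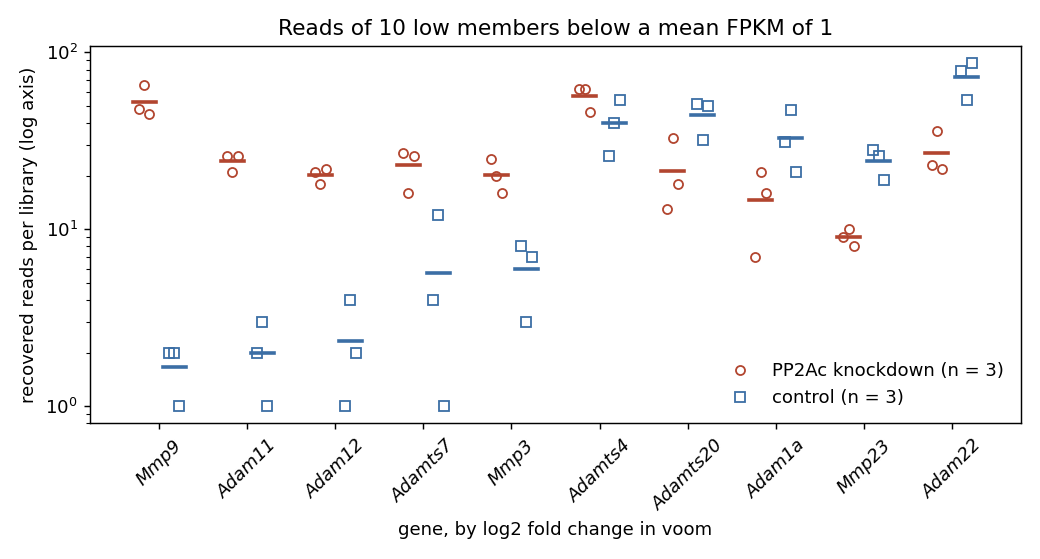
Recovered reads per library (log axis) of the 10 members with a mean FPKM below 1 and a mean of at least 10 reads, in 3 PP2Ac knockdown libraries (circles) and 3 control libraries (squares), with bars at the group means. Mmp9 has 45 to 65 reads in knockdown and 1 to 2 in control, while Adam22 has 22 to 36 in knockdown and 54 to 87 in control.

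Genes that activate, place or clear these proteases were gathered in a list of 22 genes. Of 14 tested, 8 were higher and 2 lower, while 4 did not pass, with a median log2 difference of 0.32, against 0.03 over all tested genes. This was 71.4% called, against 62.4% of all tested genes (33.3% higher, 29.1% lower). Among the tetraspanin genes of the kind that escort ADAM10, Tspan17 averaged 52.3 ± 8.25 FPKM in knockdown and 14.5 ± 0.670 FPKM in control (SD, n = 3 each; limma adjusted p = 8.66e-06), and Tspan14 16.7 ± 0.256 FPKM in knockdown and 9.72 ± 1.12 FPKM in control (limma adjusted p = 0.000168). The 2 rhomboid-like genes whose proteins carry ADAM17 to the surface went opposite ways. Rhbdf1 rose to 20.8 ± 1.21 FPKM in knockdown, against 15.2 ± 0.771 FPKM in control (limma adjusted p = 0.00117), and Rhbdf2 fell to 6.39 ± 0.599 FPKM, against 14.6 ± 0.483 FPKM in control (limma adjusted p = 1.83e-05). Of the plasminogen system, Plaur, the urokinase receptor gene, fell to 33.0 ± 2.80 FPKM in knockdown, against 87.9 ± 14.6 FPKM in control (limma adjusted p = 5.04e-05), and Plat, the tissue activator gene, rose to 2.88 ± 0.269 FPKM, against 1.26 ± 0.112 FPKM in control (limma adjusted p = 0.000309). Furin, the convertase gene, averaged 18.8 FPKM in knockdown and 20.8 FPKM in control and did not pass (limma adjusted p = 0.138).

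In a list of 13 other inhibitors and modulators, 5 genes were tested and all 5 were higher, against 33.3% of all tested genes, with a median log2 difference of 0.58, against 0.03 over all tested genes. Reck, which encodes a membrane-anchored MMP inhibitor, rose to 2.66 ± 0.296 FPKM in knockdown, against 1.44 ± 0.157 FPKM in control (limma adjusted p = 0.00201). Cst3, a cathepsin inhibitor gene, averaged 296 ± 34.1 FPKM in knockdown and 236 ± 16.1 FPKM in control (limma adjusted p = 0.0214), a call that was lost without knockdown library 1 or 2 or control library 1 or 3 (adjusted p = 0.053, 0.0694, 0.0586 and 0.0608). Pcolce, at 282 ± 27.8 FPKM in knockdown and 171 ± 16.3 FPKM in control (SD, n = 3 each), does not act mainly as an inhibitor, since it encodes an enhancer of procollagen processing.

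Substrates of the proteases moved in both directions. Of 19 tested matrix substrates in a list of 36, 13 were higher and 4 lower, while 2 did not pass, with a median log2 difference of 0.62. This was 89.5% called, against 62.4% of all tested genes (33.3% higher, 29.1% lower, median 0.03). Thbs1, a thrombospondin gene, rose to 54.5 ± 9.93 FPKM in knockdown, against 6.65 ± 1.453 FPKM in control, and Nid1, a basement membrane gene, to 6.69 ± 0.868 FPKM, against 0.126 ± 0.0386 FPKM in control. Col5a1 and Col4a1 rose as well, by 1.24 and 0.88 on the log2 scale. The proteoglycan genes Acan, Vcan, Ncan and Bcan, classical ADAMTS substrates, were all below the filter. Of 22 tested genes of membrane proteins that ADAMs can shed, in a list of 36, 8 were higher and 5 lower, while 9 did not pass, with a median of 0.08. The share called was 59.1%, close to the 62.4% of all tested genes. Sdc1, a syndecan gene, rose to 15.5 ± 0.535 FPKM in knockdown, against 1.27 ± 0.124 FPKM in control. The EGF receptor ligand genes Areg and Ereg fell, Areg to 3.08 ± 0.595 FPKM in knockdown, against 14.8 ± 3.94 FPKM in control, and Ereg to 11.3 ± 0.963 FPKM, against 28.9 ± 5.70 FPKM in control. Other ligand genes of this receptor that passed the filter did not fall by the test. Btc rose, at 1.83 FPKM in knockdown and 0.859 FPKM in control (limma adjusted p = 0.00437), while Hbegf and Tgfa did not pass (limma adjusted p = 0.633 and 0.539). Egf, below the filter, was lower in voom on recovered reads, at 0.215 FPKM in knockdown and 0.338 FPKM in control (adjusted p = 0.0375). It was not called by limma with no filter (adjusted p = 0.160). App, whose protein ADAM10 cuts, fell by 0.52 on the log2 scale, and Cdh2 rose by 0.55. Apart from Btc and the low gene Egf, the limma adjusted p of the substrate genes said here to rise or fall was at most 0.00059.

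Transcription factors known to act on MMP genes were divided. Of 25 tested in a list of 26, 8 were higher and 6 lower, while 11 did not pass, with a median log2 difference of 0.06. That is 56.0% called, against 62.4% of all tested genes. With mitochondrial, rRNA and Gm23935 rows removed and library sums made equal, 5 were higher. The ETS family genes Ets1 and Ets2 went opposite ways: Ets1 averaged 16.4 ± 0.583 FPKM in knockdown and 8.30 ± 0.508 FPKM in control (limma adjusted p = 2.61e-05), and Ets2 16.6 ± 1.30 FPKM in knockdown and 39.4 ± 1.20 FPKM in control (limma adjusted p = 9.32e-06). Elk3, also of that family, rose by 0.50. Snai1 rose by 1.03 and Snai2 fell by 0.63, both encoding repressors of epithelial genes, and Cebpb fell by 0.82. Of the AP-1 genes, Fosl1, the most abundant of the Fos genes, averaged 66.2 FPKM in knockdown and 64.9 FPKM in control (limma adjusted p = 0.761).

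Of 9 tested genes of related proteases and ADAMTS-like proteins in a list of 26, 2 were higher and 4 lower, while 3 did not pass, with a median of 0.05, so that 66.7% were called, against 62.4% of all tested genes. Without knockdown library 3, 4 were higher. Bmp1, the procollagen C-proteinase gene, rose to 17.1 ± 0.946 FPKM in knockdown, against 6.43 ± 0.557 FPKM in control (limma adjusted p = 9.69e-06), and Ece1, which encodes endothelin-converting enzyme, to 24.1 ± 0.375 FPKM, against 10.4 ± 1.58 FPKM in control (limma adjusted p = 4.67e-05). Adamts14, the only procollagen N-proteinase gene tested, was higher too, as was the enhancer gene Pcolce. Adamts14 reached the filter only through the knockdown group, and the lists were chosen with earlier results known. A shared change of these genes was thus not tested. Ctsl, a lysosomal cathepsin gene, fell to 181 ± 11.3 FPKM in knockdown, against 381 ± 26.7 FPKM in control (limma adjusted p = 2.55e-05), and Htra1, a secreted serine protease gene, to 3.70 ± 0.369 FPKM, against 8.02 ± 0.859 FPKM in control (limma adjusted p = 9.62e-05). Adamtsl3 and Adamtsl5, which encode ADAMTS-like proteins with no protease domain, fell by 0.67 and 0.18 on the log2 scale (limma adjusted p = 0.000286 and 0.0457). The call of Adamtsl5 was lost when any 1 of the 6 libraries was left out.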

How the data were processed

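RNA of 6 libraries, 3 PP2Ac knockdown and 3 control, was extracted with Trizol and made into libraries with the Illumina TruSeq RNA kit, per the labels' protocols. The authors deposited 1 table of FPKM values with gene lengths. The genome builds are GRCm38 and mm10, per the submitters' processing notes; no aligner, counter or strand setting is named, so overlapping and antisense genes are uncertain. FPKM times gene length was a whole multiple of 1 step (within 0.01) for 100% of non-zero values, which gave reads. The median of ratios to the geometric mean over libraries was 1.00714 in every library, so the deposited FPKM already carry a scaling of this kind.

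The genes whose mean FPKM reached 1 were tested with limma 3.58.1 in R 4.3.3 (eBayes with a trend) on log2(FPKM + 1), knockdown minus control, Benjamini-Hochberg adjusted over all of them at 0.05. Such fold changes understate those of low genes. The code was tested on simulated data. Tables used Python 3.11.15 and pandas 2.3.3. The members and gene lists were chosen with earlier results of these data known. Named genes were the tested members, low members whose higher group averaged at least 0.5 FPKM, 9 members with well-known roles and up to 6 genes a list with the smallest p; other members and list genes in the text were named after their values were seen. Promoters are from RefSeq; protein sequences were not used here. Alternatives were other pseudocounts, filters, scalings, variance models, voom, leaving out each library and a replicate block. Some genes that the naming rule picks are not reported here.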

Additional observations from a re-analysis of the deposited data

How the results depend on the processing

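Of the 17 tested members, 16 kept their direction where called and their side of the threshold under every alternative in which they were tested (15 or 16 alternatives each); the exception was Adam17, given above. Without a filter on low values 11 members were higher, and with voom at a mean of at least 10 reads, added after seeing the data, 10 were higher and 9 lower, since more members were then tested. With a mean FPKM of at least 5, 2 members and 2208 of all genes were lower, since fewer were tested. In the companion lists, no filter gave 1 inhibitor gene lower and 4 related protease genes higher; the related protease count was also 4 with voom at 10 reads and ranged from 2 to 4 when a library was left out. That voom fit gave 8 shed protein genes lower. With mitochondrial, rRNA and Gm23935 rows removed and library sums made equal, 5 transcription factor genes were higher, the log2 ratio of the summed MMP level was 0.48, against 0.56 as deposited, and that of the ADAM level -0.55, against -0.48. The cause was not tested for these.

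Same-numbered libraries deviated together weakly at most (r of -0.01, 0.16 and 0.05 across genes). With 3 libraries a group, this cannot exclude that the numbers pair the samples. With a replicate block 3919 genes were higher and 3444 lower, with 5 members higher and 5 lower. Median-of-ratios scaling left the values nearly as they were, by its construction. Depth limits the 61 members below the filter, for which a difference may not have been detectable.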
